A study of Mus musculus with 2 samples.

Results

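RNA of the mouse epithelial cell line Mle29c was set against RNA of the mouse epithelial cell line Mlesico for the genes of the mitochondrial respiratory chain and of ATP synthase. The members were chosen by gene symbol alone: subunits of NADH dehydrogenase (Nduf genes), succinate dehydrogenase (Sdha to Sdhd), the cytochrome bc1 complex (Uqcr genes and Cyc1), cytochrome c oxidase (Cox4 to Cox8 genes) and ATP synthase (Atp5 genes), with cytochrome c (Cycs). The rule found 92 genes, measured by 184 probe sets, out of 18193 genes and 34945 probe sets that list a single gene. Each line was hybridised to 1 oligonucleotide array, on which a probe set is a group of short probes for a transcript. Per the labels, Mle29c and Mlesico cells were grown in the same serum-containing medium, and no treatment is listed. The title of the series names miR-29c and pulmonary fibrosis, but the labels do not say whether Mle29c cells carry more or less of it, how either line was made, or whether a line is a single clone. No line was repeated, so the differences below have no replicate check and no p-value, and they compare these arrays only.

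The respiratory chain passes electrons from NADH (through complex I) and succinate (through complex II) to ubiquinone, on to cytochrome c through complex III, and to oxygen through complex IV. Complexes I, III and IV pump protons across the inner mitochondrial membrane, and complex V, the ATP synthase, uses the proton gradient to make ATP. Most subunits are encoded in the nucleus, and a few subunits of complex IV exist in isoforms that are restricted to heart and skeletal muscle, to testis, or to lung and low oxygen. In the lung, mitochondria supply ATP to alveolar type 2 cells, which make and recycle surfactant.

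The deposited values are logarithms, taken here as log2, that were centred so that the values of Mle29c and Mlesico for a probe set have the same size and opposite sign. Ratios are Mle29c minus Mlesico on that scale, so a positive ratio means a higher signal in Mle29c. The centring removed the absolute level. The rounding of the deposited numbers still gave a coarse level class (high, middle or low signal), and genes with a high or middle probe set count as measured. By this definition 89 of the 92 genes were measured, against 14820 of all 18193 genes. Cox4i2 and Cox7b2 had only a low-class probe set, and the value of Atp5j (-0.00033) was too close to 0 to be classed. Among the members 157 of 184 probe sets (85.3%) were in the high class, against 47.8% of all single-gene probe sets. On simulated data 54.0% of the high calls made from the rounding step were right, and 86 of the members' 157 high calls were of that kind. Of the members' 88 probe sets classed by the more accurate way, the sum of both values, 80.7% were high, against 34.5% of 18064 probe sets in all. The gene value is the median log2 ratio over the measured probe sets of a gene. Markers of cell types were also looked up. Since 14820 of all 18193 genes were measured, counts of measured markers cannot tell cell types apart. Of 7 epithelial markers 6 were measured, and so were all 7 alveolar type 2 markers that the array holds. Krt8 and Krt19 were the epithelial markers with high-class probe sets, and Epcam, Cdh1, Krt18 and Cldn7 had only middle-class ones. Markers of other cell types were not absent by this coarse class: 5 of 6 fibroblast, 4 of 6 leukocyte and 3 of 4 endothelial markers were measured too. Of the leukocyte and endothelial markers, Ptprc, Tyrobp and Pecam1 had only low-class probe sets, while Csf1r, Cd14, Cdh5 and Tek had high-class ones. All high calls of Csf1r, Cd14, Cdh5, Tek and Krt19 came from the less accurate rounding step, while Krt8 had 1 from the sum.

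The nuclear-encoded respiratory chain differed little between the lines as a whole. The 89 measured genes had a median log2 ratio of 0.041, with the middle 50% of them between -0.090 and 0.32, against a median of 0.0056 and a middle range of -0.35 to 0.38 over all measured genes. Past 2-fold on the higher side in Mle29c were 2 genes (2.25%), Cox6a2 and Atp5md, against 8.42% of all measured genes. Ndufb4, Cox7a1, Cox8b and Ndufs4, 4 genes or 4.49%, were at least 2-fold lower in Mle29c, against 7.19% of all. At 1.5-fold the members gave 6 higher and 7 lower genes, where the shares over all measured genes were 16.6% and 15.2%. Over the 184 probe sets, 7 were at least 2-fold higher and 9 at least 2-fold lower in Mle29c, while 12.7% and 11.7% of all single-gene probe sets were past 2-fold in these directions. At 1.5-fold, 17 were higher and 19 lower (backgrounds 21.2% and 20.1%). In the high and middle classes together, 5 of 177 member probe sets were at least 2-fold higher and 8 at least 2-fold lower (backgrounds 7.95% and 7.33%). The comparison within the high class had 3 higher and 3 lower of 157 member probe sets (backgrounds 5.63% and 4.86%). All of these probe sets past 2-fold were classed from the rounding step, whose high calls were right in 54.0% of simulated cases. Weak signals among them are therefore possible. The middle class differed from this: 2 of its 20 member probe sets (10.0%) were at least 2-fold higher and 5 (25%) at least 2-fold lower in Mle29c, against 11.6% and 11.2% of all probe sets of that class.

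**Figure D1:**
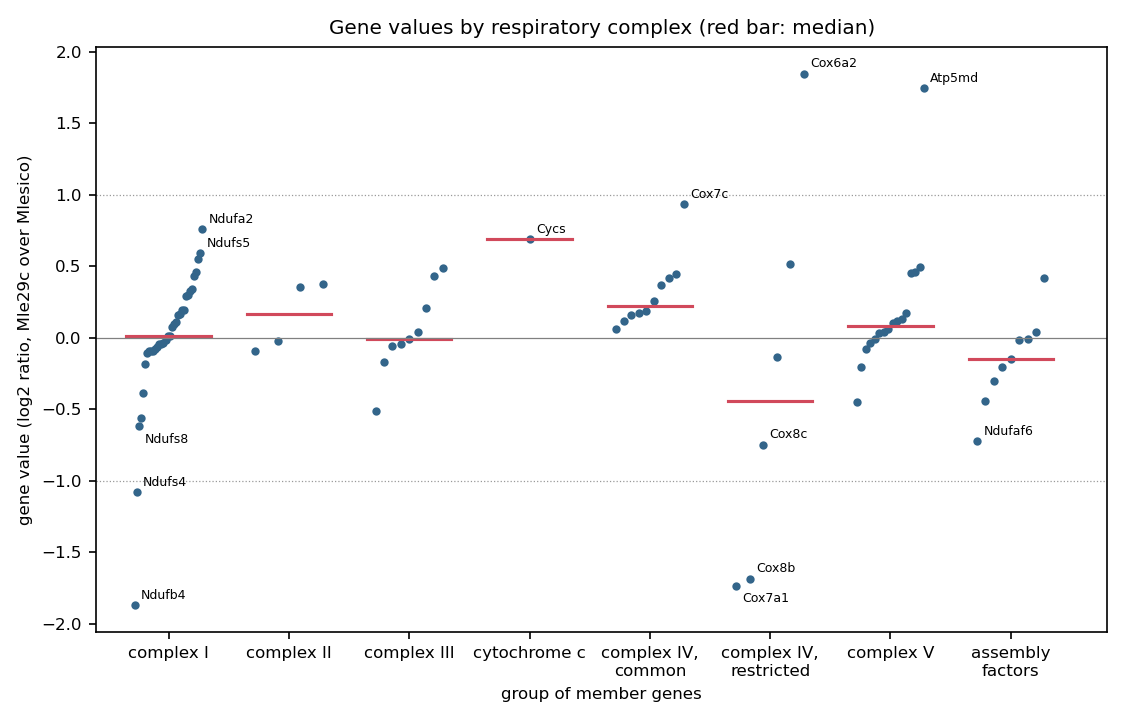
Gene value of each measured gene (log2 ratio, Mle29c over Mlesico, vertical axis) by complex, with 1 point per gene and a line at each median; dotted lines mark 2-fold. Most points lie near 0, and complex IV spans the widest range, from -1.73 (Cox7a1) to 1.85 (Cox6a2).

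Probe sets for the same gene gave a measure of technical error inside the arrays. For the 52 member genes with at least 2 measured probe sets the pooled SD of the log2 ratio between probe sets was 0.35, against 0.62 over 6895 genes of the whole array. Within the high class it was 0.28 for members and 0.43 for all genes. This spread does not include differences between cultures. A gene value within about 0.35 of 0 is therefore no larger than the disagreement between probe sets, and the median size of the 89 gene values was 0.19. Measured probe sets of a gene shared their side of 0 for 35 of the 52 members (67.3%), against 56.2% of the 6895 genes. Within the high class the shares were closer, 70.8% of members and 66.1% of all genes.

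Complex I, NADH dehydrogenase, is the entry point for electrons from NADH and had 34 member genes, all measured. Their median log2 ratio was 0.012, with 18 above and 16 below 0, and 29 of the 34 were within 1.5-fold. Ndufs4, an accessory subunit of the matrix arm whose loss in mice gives a Leigh-like brain disease, was lower in Mle29c. Its measured probe sets had centred log2 values of -0.67, -0.54 and -0.49 in Mle29c, against 0.67, 0.54 and 0.49 in Mlesico. All 3 placed Ndufs4 lower in Mle29c, the gene value was -1.08 (2.11-fold lower), and the fourth Ndufs4 probe set, in the low class, had a ratio of -0.063. Ndufb4, an accessory subunit of the membrane arm, had the lowest value of complex I. Its single member probe set, of the middle class, was at -0.93 in Mle29c and 0.93 in Mlesico, a log2 ratio of -1.87 (3.65-fold lower in Mle29c). A pair of further probe sets list Ndufb4 together with Ndufb4b and Ndufb4c, which is why they are no members. Their log2 ratios were 0.15 and 0.089, both in the high class, so the low value of Ndufb4 rests on 1 probe set while those shared with its relatives were near 0.

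Among the core subunits of the matrix arm, which carry the flavin and the iron-sulfur clusters, the median of 6 genes was -0.060. Ndufs8, an iron-sulfur subunit, had a gene value of -0.62 over 6 probe sets, of which 5 were between -0.93 and -0.53 and 1 was at 0.54. Ndufv1, which binds NADH and was named after its value was seen, stood close behind at -0.56, and its 3 probe sets ranged from -0.58 to -0.48. The 8 accessory subunits of the matrix arm had a median of 0.24, and the highest was Ndufa2, with 1 probe set at 0.38 in Mle29c and -0.38 in Mlesico, a log2 ratio of 0.76 (1.69-fold higher in Mle29c). The 19 accessory subunits of the membrane arm had a median of 0.014. Apart from Ndufb4, the 1 of these past 1.5-fold was Ndufs5, at 0.59 in its single probe set. A probe set that lists Ndufs5 together with the pseudogene Ndufs5-ps had a ratio of -0.026.

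Complex II, succinate dehydrogenase, also acts in the citric acid cycle, and all 4 of its subunits were within 1.5-fold. Sdha, the flavoprotein that oxidises succinate, had a gene value of 0.38 over measured probe sets from 0.071 to 0.76, and Sdhd, a membrane anchor, 0.36. Sdhb, the iron-sulfur subunit, was at -0.091 and Sdhc, the other anchor, at -0.021. Sdha and Sdhd thus stood above 0 by about the SD between probe sets, and Sdhb and Sdhc stood near 0.

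Complex III passes electrons from ubiquinol to cytochrome c, and its 9 genes, none past 1.5-fold, had a median of -0.0076. The highest was Uqcr11, a small subunit, at 0.49, and the lowest was Uqcrq, another small subunit, at -0.51. The 4 probe sets of Uqcrq ranged from -1.25 to 0.40, a spread wider than the distance of the gene value from 0. Cytochrome c (Cycs), the soluble carrier between complexes III and IV that also activates caspases when released from mitochondria, was higher in Mle29c. Its 4 probe sets were at 0.31, 0.32, 0.37 and 0.43 in Mle29c, against -0.31, -0.32, -0.37 and -0.43 in Mlesico. The probe sets did not differ in direction, and the gene value was 0.69 (1.61-fold higher in Mle29c).

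In complex IV, cytochrome c oxidase, the restricted isoforms spread more widely (SD 1.38) than the subunits present in most tissues (SD 0.25). All 10 subunits present in most tissues had a value above 0, from 0.059 (Cox6a1) to 0.93 (Cox7c), with a median of 0.22, while 50.4% of all measured genes were above 0. Minus the median of the measured genes around each (described further on), the median of the 10 was 0.11 and 9 were above 0, with Cox6a1 at -0.053. Cox7c, a small subunit of the membrane domain, was the 1 of the 10 past 1.5-fold. Its probe sets were at 0.52 and 0.42 in Mle29c, against -0.52 and -0.42 in Mlesico. Cox8a, a further membrane subunit, had a value of 0.45 over 3 probe sets from 0.13 to 1.31, Ndufa4, which was first assigned to complex I, 0.37, and Cox4i1, the common form of subunit 4, 0.12.

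The restricted isoforms of complex IV held the highest value among all members and, after Ndufb4, the lowest ones. Cox6a2, the heart and muscle form of subunit 6a, had probe sets at 0.71 and 1.14 in Mle29c, against -0.71 and -1.14 in Mlesico, and a gene value of 1.85 (3.60-fold higher in Mle29c). Cox7a1, the heart and muscle form of subunit 7a, was at -0.87 in Mle29c and 0.87 in Mlesico, a log2 ratio of -1.73 (3.32-fold lower in Mle29c). Cox8b, the heart and muscle form of subunit 8, was at -0.84 in Mle29c and 0.84 in Mlesico, a log2 ratio of -1.68 (3.21-fold lower in Mle29c). The 3 muscle isoforms thus lay on both sides of 0. Cox7a1 and Cox8b had 1 probe set each, in the middle class, where past 2-fold differences were more common than in the high class. The testis form Cox6b2 was at -0.14, and the testis form Cox8c at -0.75 from probe sets that disagreed (-1.56 and 0.067). Ndufa4l2, the paralogue of Ndufa4 that is induced by low oxygen, was at 0.52.

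Set against its common partner, the muscle form differed by 1.79 for Cox6a2 minus Cox6a1, by -1.89 for Cox7a1 minus Cox7a2 and by -2.13 for Cox8b minus Cox8a, each as a difference of log2 ratios. The restricted isoforms held most of each difference, since the common partners Cox6a1, Cox7a2 and Cox8a were at 0.059, 0.16 and 0.45. The difference was -0.39 for Cox6b2 minus Cox6b1 and 0.15 for Ndufa4l2 minus Ndufa4, sizes near or below the SD between probe sets. Cox4i2, the lung and hypoxia form of subunit 4, had 1 low-class probe set at 0.76 in Mle29c and -0.76 in Mlesico, which put it 1.40 above Cox4i1 with every probe set kept. Cox7b2, a testis form, had a low-class ratio of -2.11, and Cox7b was not analysed here. Of 6 striated muscle markers, 4 were measured: Myh7 (1.95) and Ckm (1.04) were at least 2-fold higher in Mle29c, Myl2 was at 0.49 and Myh6 at -0.85, while Actn2 and Tnni3 had only low-class probe sets. Their part in the values of the muscle isoforms was not tested.

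**Figure D2:**
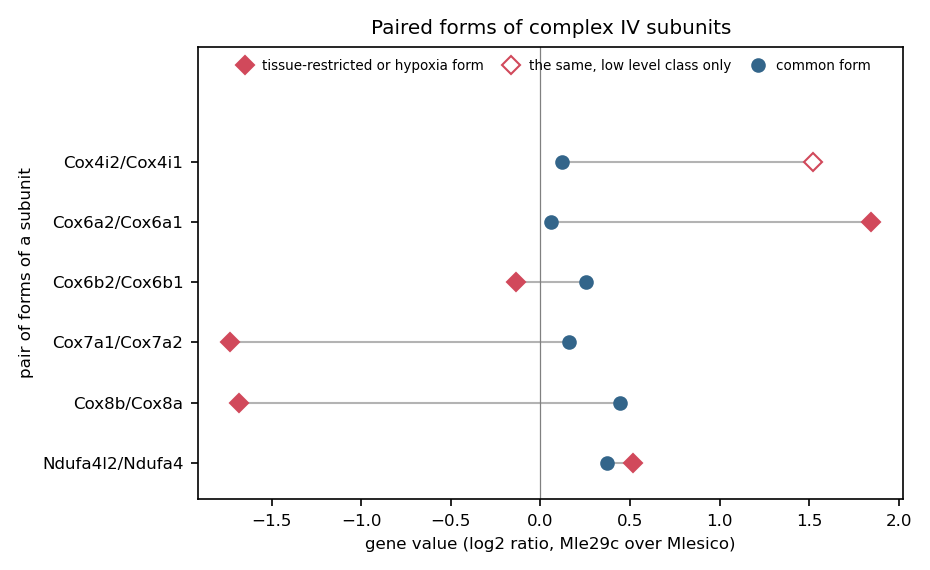
Log2 ratio (Mle29c over Mlesico, horizontal axis) of the restricted and the common isoform of each pair; every probe set is kept, so Cox4i2 is shown although its probe set is of the low class. The common isoforms lie between 0.059 and 0.45, and the restricted ones spread from -1.73 to 1.85.

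Complex V, the ATP synthase, had 17 genes, of which 16 were measured, with a median of 0.082. The F1 head, which holds the catalytic sites, was the most even part by SD: its 5 genes, Atp5a1, Atp5b, Atp5c1, Atp5d and Atp5e, lay between 0.041 and 0.17 with an SD of 0.053. The 3 genes for subunit c, which forms the rotating ring and differs between the genes in the cleaved leader peptide only, stood apart from each other. Atp5g2 was at 0.46, Atp5g3 at 0.036 and Atp5g1 at -0.45, so the lowest and the highest lay on opposite sides of 0. The probe sets of Atp5g1 were at -0.73 and -0.18, and those of Atp5g2 at -0.0092, 0.46 and 0.95, so the genes did not overlap but each was spread widely. Atp5md (DAPIT), a small membrane subunit linked to the dimers of the enzyme, had 1 probe set at 0.87 in Mle29c and -0.87 in Mlesico, a log2 ratio of 1.74 (3.35-fold higher in Mle29c). It was the 1 gene of complex V past 1.5-fold.

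**Figure D3:**
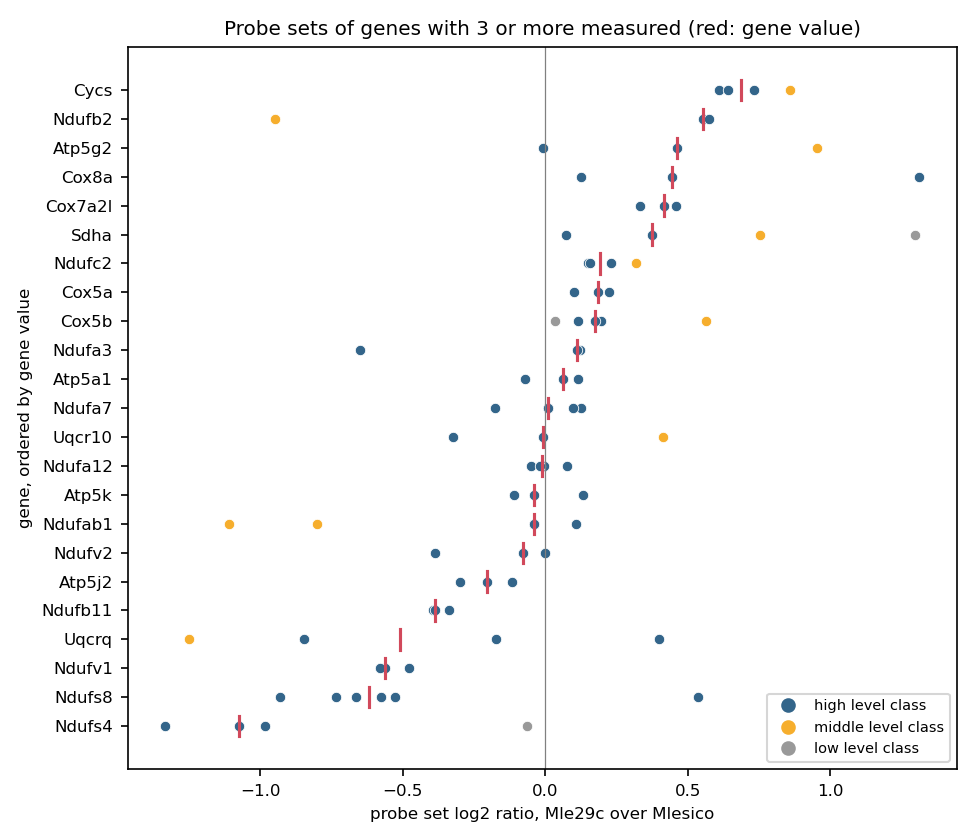
Log2 ratio (Mle29c over Mlesico, horizontal axis) of every probe set of the member genes with 3 or more measured probe sets, coloured by level class, with a red line at the gene value. The 4 probe sets of Cycs and the 3 of Ndufv1 lie on 1 side of 0, whereas those of Ndufs8 and Uqcrq lie on both sides.

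The symbol pattern also takes 9 genes that are no subunits. The 8 complex I assembly factors, Ndufaf1 to Ndufaf8, build the complex and then leave it. Of these, 7 were below 0 and Ndufaf1 was at 0.040, while 50.4% of all measured genes were above 0. Ndufaf3 (-0.018) and Ndufaf4 (-0.010) were close to 0. The lowest was Ndufaf6 at -0.72 (1.65-fold lower in Mle29c), the 1 assembly factor past 1.5-fold. Cox7a2l, which joins complexes III and IV in supercomplexes, was at 0.42. Minus the median of the measured genes around each (described further on), 4 of these 9 genes were above 0, Cox7a2l among them. Outside the pattern, a list of 42 measured assembly factors had a median of 0.030, with 3 (7.14%) at least 2-fold higher in Mle29c and 1 (2.38%) lower, shares near or below the 8.42% and 7.19% of all measured genes. The higher ones were Nubpl (1.22), which delivers iron-sulfur clusters to complex I, Cox15 (1.10), which makes heme A for complex IV, and Coa4 (1.07), a complex IV assembly factor. The lower one was Lyrm7 (-1.34), which assists the Rieske protein of complex III.

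Members were also described by their position in the genome. Each member was compared with the median of up to 40 measured genes around it, 20 on each side, in the gene order of the GRCm38.p6 assembly. Of 15 members whose neighbours had a median of 0.2 or more, 14 were above 0 (median 0.37), the exception being Ndufb7 at -0.037. Of 6 members whose neighbours had a median of -0.2 or less, none was above 0 (median -0.15). The other 68 members split into 36 above and 32 below 0, with a median of 0.025. This is a description over genes that share a chromosome and an array, with no test.

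**Figure D4:**
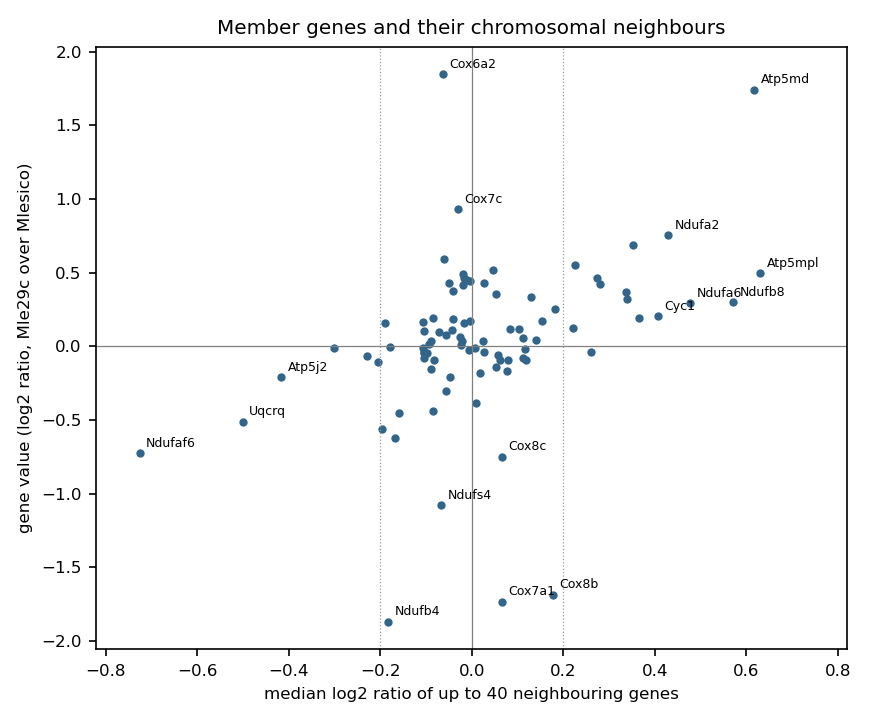
Gene value of each member (log2 ratio, Mle29c over Mlesico, vertical axis) against the median log2 ratio of its neighbouring measured genes (horizontal axis). Members with a neighbour median of 0.2 or more lie above 0 in 14 of 15 cases, and the 6 with a median of -0.2 or less all lie below 0.

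Several named values were close to those of their surroundings. Ndufaf6 (-0.72) lay among neighbours with a median of -0.73, and Uqcrq (-0.51) among neighbours at -0.50. The neighbours of Cycs had a median of 0.35, about the size of the difference that was left after it was subtracted (0.34). On chromosome 6 all 5 members were above 0 (median 0.37, against 0.32 for the 772 measured genes of the chromosome), on chromosome 15 likewise all 5 (0.42, against 0.36), and on chromosome 11 none of 5 (-0.30, against -0.25). The 6 members past 2-fold (Cox6a2, Atp5md, Ndufb4, Ndufs4, Cox7a1 and Cox8b) all remained past 2-fold after the neighbour median was subtracted. The part of the surroundings in the members' values was not tested.

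Chromosome 19 held members in both lower and higher surroundings. When its 520 measured genes were taken in order in blocks of 40, the first block had a median of -0.23 with 32 of 40 genes below 0, and it holds Ndufs8 and Ndufv1. The 9 blocks from the fifth on had medians of 0.25 to 0.63. Ndufb8, a complex I membrane arm subunit named after its value was seen, was at 0.30 in a block with a median of 0.56, and Atp5md at 1.74 in a block with a median of 0.63. Minus its own neighbours, Atp5md kept a value of 1.13, and Ndufs8 and Ndufv1 kept -0.45 and -0.37.

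**Figure D5:**
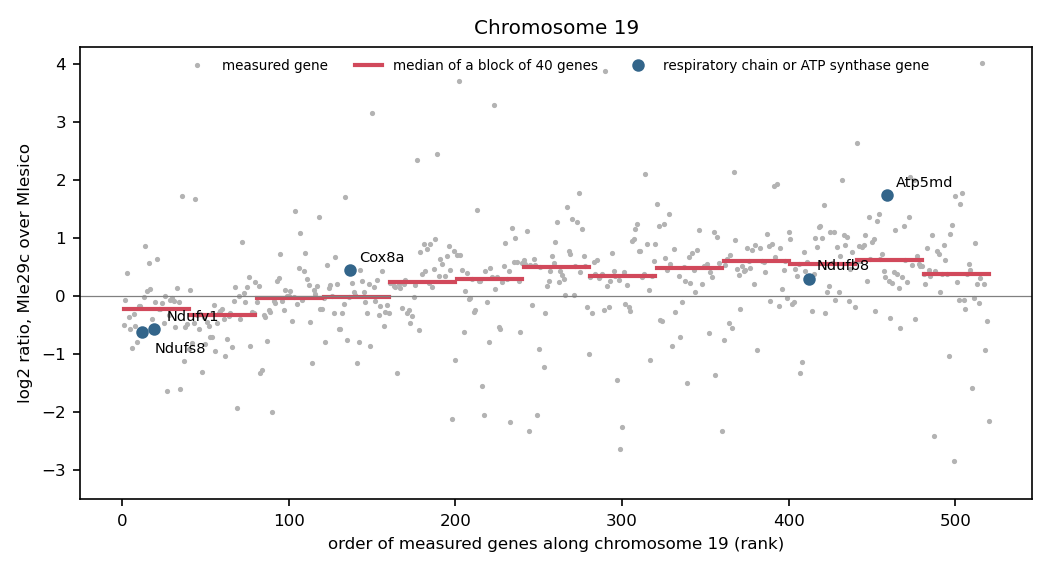
Gene values (log2 ratio, Mle29c over Mlesico, vertical axis) of measured genes in their order along chromosome 19 (horizontal axis), with the median of each block of 40 genes as a line and the members labelled; 7 genes lie outside the axis. The first block is at -0.23 and the last 9 are between 0.25 and 0.63.

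The promoters of members were read for short motifs of factors known to regulate respiratory genes. RefSeq promoters on GRCm38.p6, 250 bases before to 50 after the start, were found for 75 of the 92 genes (80 promoters). On either strand, the NRF1 motif GCATGCGC stood in 15.0% of them, against 2.71% of all 32851 promoters, and the YY1 motif AAGATGGCG in 8.75%, against 1.40%. The GABPA motif CCGGAAGT was in 6.25%, against 3.89%, and the ESRRA motif AAGGTCA in 10.0%, against 4.72%. No motif contains another. Member promoters had a median GC content of 59.0%, against 52.7% for all. A match describes letters only. The 12 members with the NRF1 motif had a median gene value of 0.024, and the other members with a promoter 0.040. The medians with and without the motif were -0.15 and 0.041 for YY1 (7 genes with it). Of these 7, Atp5j had no gene value and is not in the median. For GABPA (5 genes) the medians were 0.43 and 0.025, and for ESRRA (8 genes) 0.11 and 0.014. The differences between members with and without a motif were not tested. Shown are the promoters of Ndufs4 and Cycs, the members past 1.5-fold with a YY1 and an NRF1 motif (in capitals), and of Atp5md, Cox7a1 and Cox8b, members past 2-fold in which none of the 4 motifs was found.
Ndufs4, chr13:114388045-114388344, minus strand: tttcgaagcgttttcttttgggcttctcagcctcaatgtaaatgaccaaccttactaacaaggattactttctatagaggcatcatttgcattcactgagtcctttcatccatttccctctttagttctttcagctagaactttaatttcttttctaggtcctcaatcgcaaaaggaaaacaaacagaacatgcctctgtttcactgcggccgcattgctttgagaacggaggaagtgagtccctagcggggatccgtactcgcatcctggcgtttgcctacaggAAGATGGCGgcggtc
Cycs, chr6:50566520-50566819, minus strand: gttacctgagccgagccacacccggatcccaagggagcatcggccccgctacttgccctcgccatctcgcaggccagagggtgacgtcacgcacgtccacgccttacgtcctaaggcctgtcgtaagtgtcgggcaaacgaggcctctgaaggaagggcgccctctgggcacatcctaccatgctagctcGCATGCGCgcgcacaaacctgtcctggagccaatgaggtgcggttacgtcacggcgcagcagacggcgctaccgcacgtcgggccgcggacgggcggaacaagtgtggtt
Atp5md, chr19:47090598-47090897, minus strand: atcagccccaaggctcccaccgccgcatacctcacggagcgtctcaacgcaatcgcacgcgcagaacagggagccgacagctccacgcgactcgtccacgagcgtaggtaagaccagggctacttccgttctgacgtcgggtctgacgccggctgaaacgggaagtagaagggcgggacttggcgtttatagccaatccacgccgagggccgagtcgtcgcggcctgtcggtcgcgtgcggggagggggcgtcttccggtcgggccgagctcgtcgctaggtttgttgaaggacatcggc
Cox7a1, chr7:30183921-30184220, plus strand: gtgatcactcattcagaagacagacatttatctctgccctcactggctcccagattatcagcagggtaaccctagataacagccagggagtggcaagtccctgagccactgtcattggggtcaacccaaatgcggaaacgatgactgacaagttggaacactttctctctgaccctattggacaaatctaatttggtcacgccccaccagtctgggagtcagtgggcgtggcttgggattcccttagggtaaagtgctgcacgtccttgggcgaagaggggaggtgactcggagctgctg
Cox8b, chr7:140900397-140900696, minus strand: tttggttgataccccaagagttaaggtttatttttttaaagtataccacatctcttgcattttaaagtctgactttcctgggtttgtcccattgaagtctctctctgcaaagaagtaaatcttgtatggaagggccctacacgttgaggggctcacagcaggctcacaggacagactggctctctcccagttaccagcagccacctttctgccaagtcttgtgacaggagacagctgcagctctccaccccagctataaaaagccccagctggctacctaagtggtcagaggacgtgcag

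The factors themselves and the wider mitochondrial programme were read from fixed gene lists. Among 27 measured regulators of mitochondrial biogenesis the median was -0.025. Ppargc1b, a coactivator of respiratory gene transcription, was at 2.30 and Twnk, the mitochondrial DNA helicase, at 1.19, the 2 genes of this list (7.41%) at least 2-fold higher in Mle29c, against 8.42% of all measured genes, and none was 2-fold lower, against 7.19%. Ppargc1b and Twnk had 1 measured probe set each. The lowest of the list was Mterf1a, a mitochondrial transcription termination factor, at -0.96. Of the factors whose motifs were searched, and which were named for that reason, Nrf1 was at 0.16, Yy1 at 0.39, Gabpa at -0.11 and Esrra at -0.025.

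Pathways that feed the chain had medians near 0, and none of their lists had more than 1 gene past 2-fold in either direction. Such a gene made up 5.56% to 7.69% of its list, near or below the 8.42% higher and 7.19% lower over all measured genes. Over 17 measured genes of the citric acid cycle and pyruvate entry the median was -0.011, from Suclg1 (succinyl-CoA ligase) at 0.27 to Pcx (pyruvate carboxylase) at -1.12, the 1 gene of that list past 2-fold. Over 18 genes of ubiquinone synthesis and electron entry the median was -0.0071. Sqor, which passes electrons from sulfide to ubiquinone, was at 2.72, and Coq3, a methyltransferase of ubiquinone synthesis, was lowest at -0.82. Over 13 carriers and porins the median was -0.061, with Ucp1, the uncoupling protein of brown fat, at 1.53 and Slc25a31, the testis form of the ADP/ATP carrier, at -2.41. Of the mitochondrially encoded subunits, ND5 of complex I was the 1 analysed here, at -0.43. Among the list genes past 2-fold, Cox15, Twnk and Pcx lie on chromosome 19, in blocks with medians of 0.60, 0.56 and -0.23. The part of their surroundings in these values was not tested.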

How the data were processed

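Biotin-labelled cRNA was made from Trizol-extracted total RNA, per the labels' protocols. The deposited values are log values, taken here as log2 because the base is not stated, and they were centred by the authors: both values of a probe set sum to 0 within 1e-06. MAS5, with no version, is named in the submitters' processing notes. If the base were 10, the columns would differ by up to 2.09e+10-fold; a natural base would raise each printed fold.

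The platform annotation of 2016 gave the names: of 45101 probe sets, 34945 list a single gene, 932 several, 9160 none here, and 64 are controls. Symbols were updated through a gene table of GRCm38.p6, in which 34741 of the 34945 were found. Level classes (high at a mean log2 level of 8 or more, middle from 4 to 8, low below 4) came from the sum of both values or from their rounding step in single precision. On simulated data the sum gave the right class in 95.9% of cases and the step in 67.9%, and 91.8% of high or middle calls were not low. Calls were made by size, at 2-fold, with 1.5-fold as an alternative. The number of arrays limits the precision. Scripts ran in Python 3.11.15 with pandas 2.3.3 and numpy 2.4.6.

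Members and lists were chosen with earlier results of these data known. Named were the isoform pairs, the subunit c genes, complex II, Cycs, the extremes of each complex, all members past 1.5-fold, and the extremes and genes past 2-fold of each list. Genes outside this rule were named after their values were seen.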

Additional observations from a re-analysis of the deposited data

How the results depend on the processing

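Of 77 values recomputed under alternatives, 66 stayed within a margin and 11 moved beyond it; the margin was 1.5 times for a count, the members' SD between probe sets for an isoform difference, and that SD over the square root of the number of genes for a complex median. The opposite sign appeared in 7 values, all of them medians of complexes I, II and III. For complex I, 2 alternatives gave -0.039 and -0.015 (reported 0.012), and for complex III, 4 gave 0.027 to 0.058 (reported -0.0076). None of the isoform differences changed sign under the alternatives that gave a value. Some of the values that stayed could not move, because the alternative used the same probe sets. Cox7a1 minus Cox7a2, for example, was -1.89 with every probe set kept and with the mean over probe sets. The tally therefore overstates how far the results were tried. At 1.5-fold, 17 member probe sets were higher and 19 lower in Mle29c, and 13 measured genes were past the threshold, against 6 at 2-fold. With high-class probe sets only, 3 genes were past 2-fold (Cox6a2, Atp5md and Ndufs4), and with the class from the sum only, 1 (Cox6a2), over 83 and 59 genes. Cox7a1, Cox8b and Ndufb4 have no probe set in those selections, so Cox7a1 minus Cox7a2 and Cox8b minus Cox8a had no value there. Ndufs4 and Atp5md have no measured probe set with the class from the sum, so they were not among those 59 genes. Cox6a2 minus Cox6a1 was 1.35 with the high class only, 1.36 without probe sets that can match several transcripts (suffix x or s), and 2.22 with the class from the sum. Cox8b minus Cox8a was -2.56 without suffix x or s. The median of complex II (reported 0.17) was -0.021 with the class from the sum, and that of complex IV (reported 0.18) was 0.052 minus the neighbouring genes. The cause of these shifts was not tested beyond the smaller selections named. The class from the sum, the subtraction of neighbouring genes and the gene count at 1.5-fold were alternatives chosen after seeing the data. No paired analysis was possible because each line has 1 array.

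The limits are those of 1 array per line: no spread between cultures was measured, the absolute level was removed by the centring, and the level class of a probe set can be wrong. Values of Ndufb4, Cox7a1, Cox8b and Atp5md rest on 1 probe set each. Among the 6 members past 2-fold, only Cox6a2 and Ndufs4 have more than 1 measured probe set. Among the genes of the context lists past 2-fold, only Cox15 has more than 1.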

Other observations

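Mitochondrial antioxidant and fission-fusion genes had a higher median than the respiratory chain. Over 16 measured genes of that list the median log2 ratio was 0.29, with 11 above 0. Over all measured genes the median was 0.0056, and 50.4% were above 0. This is a description with no test, and neighbouring genes were not subtracted for this list. Bnip3, a mitophagy receptor that is induced by low oxygen, was at 1.39. It was the 1 gene of the list (6.25%) past 2-fold, against 8.42% higher and 7.19% lower over all measured genes. The lowest was Mfn1, a mitofusin of the outer membrane, at -0.32. Named after their values were seen, Txn2, the mitochondrial thioredoxin, was at 0.70 over 3 probe sets, Pink1, a kinase that marks damaged mitochondria, at 0.50, and Sod2, the superoxide dismutase of the matrix, at -0.062.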
